A study of Mus musculus with 12 samples.

Results

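The tetraspanins Cd9, Cd37, Cd53, Cd63, Cd81, Cd82 and Cd151 were followed across 4 sorted populations of mouse blood cells. Of these 7 genes, listed by name, 6 had a probe set that the platform annotation gives to a single gene, among 18193 genes measured in this way, and the level of Cd63 was not analysed here. The 6 genes were covered by 14 of the 45037 probe sets other than controls: 1 each for Cd9 and Cd81, 2 each for Cd37, Cd53 and Cd82, and 6 for Cd151. A gene was represented by its brightest probe set over the 12 arrays.

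RNA from each sorted sample was hybridised to an Affymetrix GeneChip, which reports 1 intensity per probe set. All samples carried the labels C57Bl/6 for strain and 10 to 12 weeks for age, and no mutation or treatment beyond sorting is named in them. The haematopoietic stem cell group (HSC, 3 arrays) was bone marrow sorted as lineage-, cKit+, Sca1+, CD150+ and Flk2/Flt3-. The multipotent progenitors (MPP, 3 arrays) were marrow cells with the same lineage, cKit and Sca1 phenotype that were CD150- and Flk2/Flt3+. The PreMegE group (4 arrays), progenitors of megakaryocytes and erythrocytes, was marrow sorted as lineage-, cKit+ and Sca1- with CD150+, and without CD105 or CD41. Its replicate 4 carries the number 3 in its description, so whether replicates 3 and 4 are separate samples is in doubt, and results were also fitted with them averaged. The mature T cells (CD4+ T cell, 2 arrays) came from spleen, gated on CD4 and against CD8, B220 and Nk1.1. The design text says that the authors newly sorted HSC and MPP and reused PreMegE and CD4+ T cell arrays of 2 earlier studies, so study and population cannot be told apart in any comparison other than MPP against HSC. Since no label ties a replicate to its own animal, p-values here cover only the scatter among these samples, which may be technical.

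Tetraspanins are small proteins that cross the cell membrane several times and expose a small and a large loop outside. They bind integrins, immunoglobulin-like receptors, proteases and one another, and so gather partner proteins into patches of the membrane and steer their traffic to and from the surface. In blood cells CD37 and CD53 are largely restricted to leukocytes, CD81 is broadly expressed, CD151 pairs with laminin-binding integrins, and CD9 is abundant on platelets and on mouse stem cells. CD82 is a further widely expressed member, first studied as a suppressor of metastasis.

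The bases upstream of the RefSeq start sites (assembly GRCm38.p6) are shown for the 3 genes with the highest mean in CD4+ T cells and the next highest in MPP (Cd53, Cd37 and Cd82), and for 2 of the 3 with the highest mean in HSC (Cd9 and Cd151), so that genes of like and unlike order can be read side by side. These orders are of means on the brightest probe sets. The other probe sets of Cd37 and Cd82 order the populations otherwise, and Cd82 was not called between CD4+ T cells and MPP. Each line holds the 250 bases before the start, 5′ to 3′ in the direction of the gene, and capitals mark every match, on either strand, to 3 motifs: GGAAGT (a site form of ETS factors), GAGGAA (a site form of the ETS factor PU.1) and GGGCGG (the GC box). GGAAGT and GAGGAA share letters and overlap where they occur as 1 run. The Cd53 bases lie at chr3:106790150-106790399 on the minus strand, those of Cd37 at chr7:45238840-45239089 (minus), those of the first of 4 Cd82 start sites at chr2:93462951-93463200 (minus), those of Cd9 at chr6:125494761-125495010 (minus), and those of the first of 2 Cd151 start sites at chr7:141467112-141467361 (plus).
Cd53: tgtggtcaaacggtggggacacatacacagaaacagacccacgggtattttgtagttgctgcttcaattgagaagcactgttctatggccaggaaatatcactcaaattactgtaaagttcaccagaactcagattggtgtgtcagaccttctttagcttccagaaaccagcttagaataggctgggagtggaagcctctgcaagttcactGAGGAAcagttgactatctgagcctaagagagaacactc
Cd37: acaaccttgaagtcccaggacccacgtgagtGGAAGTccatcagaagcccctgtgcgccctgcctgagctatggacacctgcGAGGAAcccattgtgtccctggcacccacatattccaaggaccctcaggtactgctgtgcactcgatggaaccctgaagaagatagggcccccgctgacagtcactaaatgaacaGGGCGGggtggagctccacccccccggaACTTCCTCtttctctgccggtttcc
Cd82: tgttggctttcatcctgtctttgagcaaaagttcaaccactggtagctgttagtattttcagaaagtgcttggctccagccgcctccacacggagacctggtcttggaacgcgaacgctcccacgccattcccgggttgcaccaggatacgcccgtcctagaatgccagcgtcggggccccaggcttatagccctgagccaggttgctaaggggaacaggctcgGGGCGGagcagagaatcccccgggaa
Cd9: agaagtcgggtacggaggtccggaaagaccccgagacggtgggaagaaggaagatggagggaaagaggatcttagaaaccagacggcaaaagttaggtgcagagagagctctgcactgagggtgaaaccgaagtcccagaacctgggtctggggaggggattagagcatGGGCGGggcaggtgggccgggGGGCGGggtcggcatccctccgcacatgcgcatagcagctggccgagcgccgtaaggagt
Cd151: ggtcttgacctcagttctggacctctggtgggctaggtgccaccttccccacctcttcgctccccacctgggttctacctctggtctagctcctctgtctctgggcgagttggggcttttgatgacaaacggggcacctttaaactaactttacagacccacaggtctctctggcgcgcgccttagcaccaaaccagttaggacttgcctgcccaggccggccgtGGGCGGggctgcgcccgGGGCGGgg

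The Cd53 bases were the poorest in G and C of the 5, at 45.2%, with 2 CpG, against a median of 52.4% and 6 CpG over 32851 RefSeq promoters of this length. Cd37 had 58.8% and 8 CpG, Cd82 58.4% and 14 CpG, Cd9 61.6% and 16 CpG, and Cd151 62.4% and 12 CpG. In the window from 250 bases before to 50 after the start, Cd37 held GGAAGT at -219 to -214 and, on the opposite strand, at -25 to -20, where it overlapped a GAGGAA match at -23 to -18. Cd37 also held GAGGAA at -168 to -163 and a GC box at -53 to -48. Cd53 held GAGGAA at -39 to -34 and, on the opposite strand past the start, GAGGAA at 9 to 14 overlapping GGAAGT at 7 to 12, and no GC box. Cd82 shares with Cd37 and Cd53 the highest mean in CD4+ T cells and the next highest in MPP, but not the whole order of Cd37. It held GC boxes at -26 to -21 and 1 to 6 of its first start site and neither GGAAGT nor GAGGAA there. Its 2nd start site had a GC box at -68 to -63 alone, the 3rd had GGAAGT at -223 to -218 and -115 to -110 with GAGGAA at -225 to -220 and -23 to -18, and the 4th had none of these. Cd9 had GC boxes at -81 to -76 and -60 to -55, and Cd151 at -25 to -20 and -8 to -3 of its first start site. The 2nd Cd151 start site had no GC box, and neither gene held GGAAGT or GAGGAA. Over all RefSeq promoters GGAAGT was found in 23.8%, GAGGAA in 28.3% and GGGCGG in 35.7%. AGATAA, a site form of GATA factors found in 11.2% of all promoters, was in no window of a listed gene. Cd81, whose start is at base 143052750 of chromosome 7 (plus strand), held 3 GC boxes and neither of the ETS forms. Cd63 held GGAAGT at -230 to -225, GAGGAA at -244 to -239 and, on the opposite strand, at -59 to -54, and no GC box. These matches describe letters only.

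Every array median lay between 14.4 and 15.6 on the linear intensity scale, and arrays of a population correlated at r = 0.984 to 0.994 across genes. Of the sort markers, Flt3 was at 9.95 to 10.10 on the log2 scale in the MPP arrays and at most 6.82 elsewhere, and Cd4 was at 9.11 and 9.49 in CD4+ T cells and at most 5.13 elsewhere. Transcripts of both proteins gated out of PreMegE were present there: Itga2b (CD41) was at 8.14 to 8.82, above the 7.70 to 7.89 of MPP and below the 10.45 to 10.63 of HSC, and Eng (CD105) was at 7.93 to 8.38, beside 7.74 to 8.11 in HSC and 7.50 to 8.05 in MPP. HSC array 2 and PreMegE array 1 stood apart in neutrophil transcripts and, among the measured B cell markers, in Ighm. The summed level of 6 measured neutrophil markers of 7 was 11.99 on HSC array 2 against 8.73 and 8.98 on the others, and 11.21 on PreMegE array 1 against 9.23 to 9.98. Ighm, the immunoglobulin heavy chain, was at 9.04 against 4.71 and 5.04, and at 9.35 against 3.57 to 4.36, on the same arrays. The other measured B cell markers, Cd79a, Cd79b, Ms4a1 and Pax5, lay much closer to the other arrays of their population. HSC arrays also differed in sex-linked transcripts, with Xist at 12.04 on array 1 and at 2.45 and 2.59 on arrays 2 and 3. It was at 10.91 or more on the arrays of the other populations. Y-linked Eif2s3y was at 7.46 and 8.47 on HSC arrays 2 and 3 and at 2.31 to 2.71 on all other arrays. Sex-linked transcripts are thus unbalanced in each comparison with HSC, MPP against HSC included. HSC array 1, the one like the other populations in these transcripts, was also fitted as the only HSC array. Without HSC array 2 the call of Cd151 between PreMegE and HSC was lost, as given beside it, and without PreMegE array 1 no call on a listed gene was gained or lost. The log2 ratio of 3' to 5' Actb probe sets, a sign of RNA quality or labelling, was 0.99 to 1.13 in CD4+ T cells, 2.35 to 2.77 in HSC and MPP, and 3.49 to 4.65 in PreMegE. The same ratio of Gapdh was 2.55 to 2.66 in CD4+ T cells, 3.62 to 4.14 in HSC and MPP, and 3.12 to 4.39 in PreMegE. Both ratios set CD4+ T cells apart, and that of Actb alone sets PreMegE apart, and their part in the results on these populations was not tested. In bulk samples such as these, fewer cells of a type and less RNA per cell cannot be told apart.

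**Figure D1:**
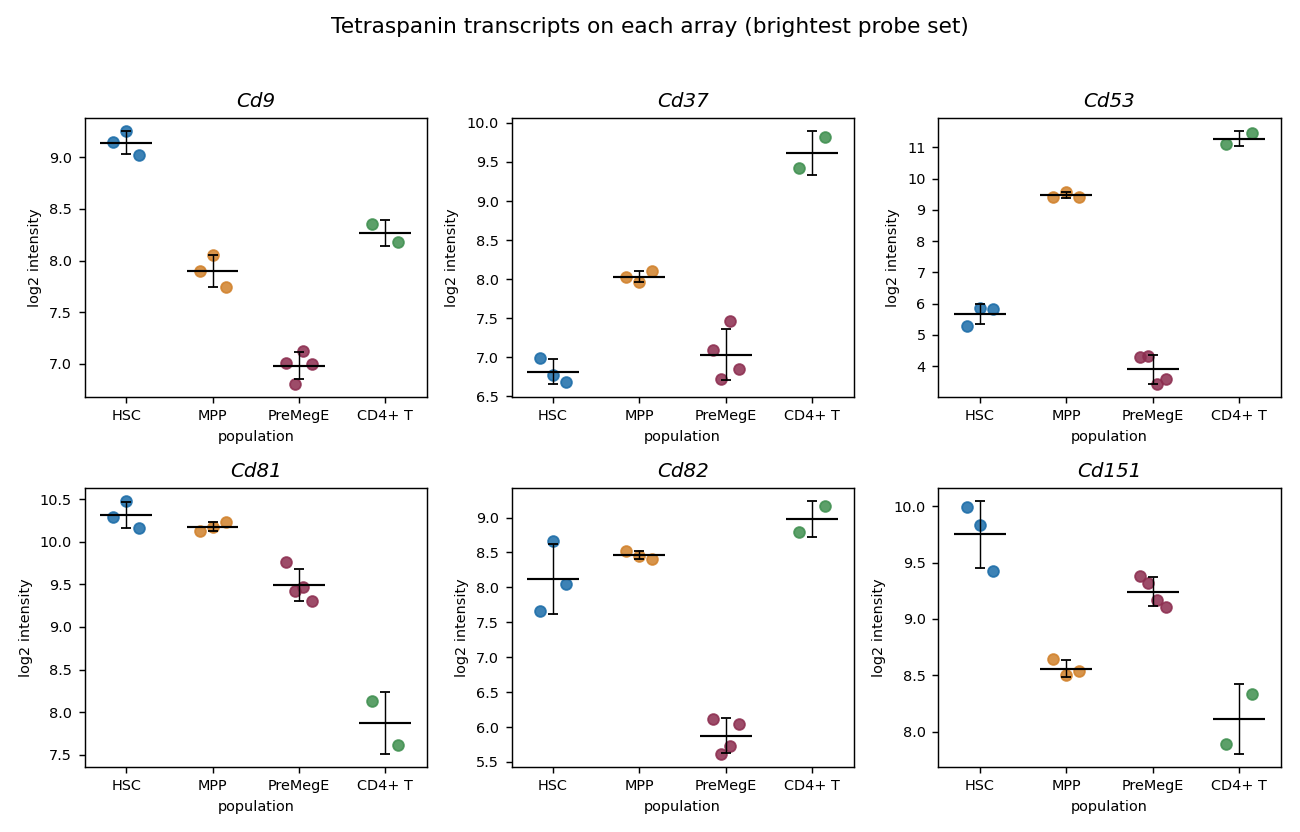
Log2 intensity of the brightest probe set of 6 tetraspanin genes (vertical axes, a separate scale per gene) on each array of HSC, MPP, PreMegE and CD4+ T cells (horizontal axis). Points are arrays, horizontal lines are means and bars are SD. Cd53 and Cd37 are highest in CD4+ T cells, with MPP next, whereas Cd9, Cd81 and Cd151 have their highest mean in HSC.

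Cd53, a tetraspanin of leukocytes, differed most between the populations. Its log2 intensity was 11.11 and 11.46 in CD4+ T cells, 9.42, 9.58 and 9.41 in MPP, 5.29, 5.86 and 5.82 in HSC, and 4.29, 4.31, 3.43 and 3.58 in PreMegE. The 4 populations were fully separated, in that order, and the lower PreMegE arrays were close to the 25th percentile of all gene means there, 3.32. From HSC to MPP, the comparison within 1 study, Cd53 was higher by 3.82 ± 0.24 on the log2 scale (SE of the fit, n = 3 and 3, adjusted p = 5.50e-08), which is 14.1-fold. From MPP to PreMegE it was lower by 47.5-fold (-5.57 ± 0.22, adjusted p = 5.54e-11), and from HSC to PreMegE by 3.37-fold (-1.75 ± 0.22, adjusted p = 2.22e-05). CD4+ T cells lay 3.52-fold above MPP (1.81 ± 0.27, adjusted p = 4.83e-05), 49.6-fold above HSC (5.63 ± 0.27, adjusted p = 1.58e-10) and 167-fold above PreMegE (7.38 ± 0.25, adjusted p = 2.98e-12). The span between its highest and lowest population mean was at percentile 99.8 of the spans of all genes.

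The 2nd probe set of Cd53, 1459744_at, was dimmer and gave the same direction in 5 of the 6 comparisons, all called. Its means were 7.77 ± 0.67 (SD, n = 2) in CD4+ T cells, 4.72 ± 0.21 (n = 3) in MPP, 2.97 ± 0.09 (n = 3) in HSC and 2.96 ± 0.17 (n = 4) in PreMegE. The HSC and PreMegE values lay under the 25th percentile of gene means in those populations (3.35 and 3.32), and their difference on it was -0.00 ± 0.20 (adjusted p = 0.994 over all probe sets). The rise from HSC to MPP was 1.76 ± 0.21 on this probe set (adjusted p = 2.10e-04), smaller than on the brightest one.

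Cd37, the other leukocyte-restricted member, was at 9.42 and 9.82 in CD4+ T cells and at 8.03, 7.96 and 8.11 in MPP. It was at 6.99, 6.77 and 6.69 in HSC and at 7.09, 6.72, 7.46 and 6.85 in PreMegE, 2 sets of arrays that overlap. CD4+ T cells lay above every array of the other populations and MPP above every HSC and PreMegE array. Cd37 was higher in MPP than in HSC by 1.22 ± 0.19 (2.32-fold, adjusted p = 4.87e-04) and lower in PreMegE than in MPP by 1.0 on the log2 scale (-1.0 ± 0.18, adjusted p = 3.51e-04). It was higher in CD4+ T cells than in HSC (2.80 ± 0.21, 6.97-fold, adjusted p = 3.21e-08), in PreMegE (2.59 ± 0.20, adjusted p = 4.06e-08) and in MPP (1.59 ± 0.21, adjusted p = 1.85e-05). PreMegE minus HSC was 0.21 (95% interval -0.16 to 0.59, adjusted p = 0.433).

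The probe sets of Cd37 disagreed on the progenitors. On 1425736_at the means were 5.90 ± 0.43 (SD, n = 3) in HSC, 5.11 ± 0.74 (n = 3) in MPP, 6.87 ± 0.34 (n = 4) in PreMegE and 8.35 ± 0.76 (n = 2) in CD4+ T cells. CD4+ T cells were again the highest population, with the 3 comparisons that involve them called higher at differences of 2.45, 3.24 and 1.48 against HSC, MPP and PreMegE. PreMegE, by contrast, was higher than MPP on this probe set (1.76 ± 0.34, adjusted p = 0.00173), opposite in sign to the brightest one, and MPP minus HSC was -0.79 ± 0.37 (adjusted p = 0.276). The MPP difference of Cd37 therefore rests on 1 probe set: with the mean of both it was 0.22 (adjusted p = 0.696), and with HSC array 1 as the only HSC array the brightest one gave 1.04 (adjusted p = 0.0529).

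Of the B cell markers, Ighm and Cd79b were, like Cd37 and Cd53, highest in CD4+ T cells and next highest in MPP. The summed log2 level of 5 measured B cell markers of 6 was 12.36 to 12.56 in CD4+ T cells, 10.08 to 10.81 in MPP, 6.79 to 9.30 in HSC and 6.28 to 9.51 in PreMegE, and in CD4+ T cells and MPP most of it was Ighm. Cd79b was 7.12 and 7.14 in CD4+ T cells, 5.99 to 6.17 in MPP, 5.54 to 5.87 in HSC and 4.86 to 5.25 in PreMegE. Cd79a was at 4.83 and 4.66 in CD4+ T cells, but lower in MPP (3.53 to 3.67) than in HSC (3.79 to 3.92). Ms4a1 was at 6.45 and 6.76 in the CD4+ T cell arrays and at 2.66 to 3.42 elsewhere. Pax5 was at 3.46 and 3.37 in CD4+ T cells, near the 25th percentile of 3.27. B220, a B cell marker, was gated out of the CD4+ T cell sort. The summed level of 3 measured T cell markers of 5 was 11.89 to 12.23 in CD4+ T cells and 5.59 to 6.11 elsewhere. The part of the B cell transcripts in the Cd37 and Cd53 levels was not tested. On HSC array 2, where Ighm was high, Cd53 stood at 5.86 beside 5.29 and 5.82 on the other HSC arrays, and on PreMegE array 1, likewise high in Ighm, at 4.29 beside 4.31, 3.43 and 3.58.

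Cd82 was lowest in PreMegE, at 6.12, 5.61, 5.73 and 6.05. It was at 7.67, 8.66 and 8.04 in HSC, 8.52, 8.46 and 8.41 in MPP, and 8.79 and 9.16 in CD4+ T cells. All PreMegE arrays lay below every other array, the HSC arrays spread across the MPP values, and CD4+ T cells lay just above both. PreMegE was lower than MPP by 5.99-fold (-2.58 ± 0.21, adjusted p = 1.19e-07) and than HSC by 4.73-fold (-2.24 ± 0.21, adjusted p = 9.43e-07), and CD4+ T cells were 8.57-fold above PreMegE (3.10 ± 0.23, adjusted p = 3.06e-08). The difference of MPP from HSC was 0.34 (95% interval -0.13 to 0.81, adjusted p = 0.421) and that of CD4+ T cells from MPP 0.52 (-0.01 to 1.04, adjusted p = 0.127), which was called when only those 5 arrays were fitted (adjusted p = 0.0343). Cd82 was higher in CD4+ T cells than in HSC by 0.86 ± 0.25 (adjusted p = 0.0116), a call that was lost without HSC array 1 (0.63, adjusted p = 0.0555), without CD4+ T cell array 2 (0.67, adjusted p = 0.122), after quantile normalisation (adjusted p = 0.0532) and with these 2 populations alone (adjusted p = 0.0510). With HSC array 1 as the only HSC array the same difference was 1.31.

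The 2nd Cd82 probe set, 1449611_at, did not show these differences. Its means were 5.79 ± 0.30 (SD, n = 3) in HSC, 5.69 ± 0.15 (n = 3) for MPP, 5.67 ± 0.36 (n = 4) for PreMegE and 5.19 ± 0.02 (n = 2) for CD4+ T cells, and it was called in 0 of the 6 comparisons by limma, and in 3, those with CD4+ T cells as the lower population, its unadjusted p was under 0.05. At PreMegE against HSC it gave -0.12 ± 0.19 (adjusted p = 0.751), far from the difference of the brightest probe set. The Cd82 differences thus come from 1416401_at alone.

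Cd9 was highest in HSC, at 9.15, 9.25 and 9.02. It was next at 8.35 and 8.18 in CD4+ T cells, then at 7.90, 8.05 and 7.74 in MPP, and lowest at 7.01, 6.81, 7.13 and 7.0 in PreMegE. No arrays of different populations overlapped. Within the study's own sort, Cd9 was lower in MPP than in HSC by 2.36-fold (-1.24 ± 0.15, adjusted p = 4.12e-05). It was lower again in PreMegE, by 1.89-fold against MPP (-0.91 ± 0.14, adjusted p = 8.02e-05) and 4.46-fold against HSC (-2.16 ± 0.14, adjusted p = 1.98e-08). CD4+ T cells lay below HSC (-0.88 ± 0.16, adjusted p = 4.55e-04) and above PreMegE (1.28 ± 0.16, adjusted p = 7.04e-06). Against MPP they differed by 0.37 (95% interval 0.02 to 0.72, adjusted p = 0.103), so these neighbours in the order were not called apart, except after cyclic loess normalisation (0.48, adjusted p = 0.0348). All 6 listed megakaryocyte and platelet markers were measured. Their summed log2 level was 11.93 to 12.06 in HSC, 8.60 to 8.84 in MPP, 9.36 to 9.88 in PreMegE and 6.83 to 7.27 in CD4+ T cells. Which cells these transcripts came from, and what part such cells have in the HSC level of Cd9, was not tested.

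Cd81, which encodes a broadly expressed member, was highest in HSC and MPP, lower in PreMegE and lowest in CD4+ T cells. It was at 10.30, 10.48 and 10.17 in HSC, 10.13, 10.17 and 10.23 in MPP, 9.76, 9.43, 9.47 and 9.31 in PreMegE, and 8.13 and 7.61 in CD4+ T cells. HSC and MPP arrays overlapped, and MPP minus HSC was -0.14 (95% interval -0.50 to 0.22, adjusted p = 0.730). PreMegE arrays lay below both, by 0.82 ± 0.16 under HSC (-0.82, adjusted p = 9.13e-04) and 0.69 ± 0.16 under MPP (-0.69, adjusted p = 0.00300). CD4+ T cells were lower than HSC by 5.44-fold (-2.44 ± 0.19, adjusted p = 4.26e-08), than MPP by 4.95-fold (-2.31 ± 0.19, adjusted p = 9.16e-08) and than PreMegE by 3.07-fold (-1.62 ± 0.18, adjusted p = 2.47e-06). Cd81 thus had its lowest mean in the population where the brightest probe sets of Cd37, Cd53 and Cd82 had their highest. Cd82 was not called there against MPP, and its 2nd probe set had its lowest mean in CD4+ T cells.

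Cd151, the partner of laminin-binding integrins, had its highest mean in HSC and its next highest in PreMegE. It was at 9.99, 9.83 and 9.42 in HSC, 9.38, 9.32, 9.16 and 9.11 in PreMegE, 8.64, 8.50 and 8.53 in MPP, and 7.89 and 8.33 in CD4+ T cells. On the brightest probe sets it was the 1 gene of the 6 that was higher in PreMegE than in MPP (0.68 ± 0.16, 1.61-fold, adjusted p = 0.00374). On its other probe set, 1425736_at, Cd37 was higher there too (1.76, adjusted p = 0.00173 over all probe sets). Cd151 was lower in MPP than in HSC by 2.28-fold (-1.19 ± 0.17, adjusted p = 2.68e-04), and lower in CD4+ T cells than in HSC (-1.64 ± 0.19, adjusted p = 4.76e-06) and PreMegE (-1.13 ± 0.18, adjusted p = 1.33e-04). The HSC and PreMegE arrays came within 0.1 of each other, and the call between them was weak (-0.51 ± 0.16, adjusted p = 0.0274). It was lost without HSC array 1 (-0.39, adjusted p = 0.149), HSC array 2 (-0.47, adjusted p = 0.0885) or PreMegE array 4 (-0.46, adjusted p = 0.0716), and with PreMegE arrays 3 and 4 averaged (-0.47, adjusted p = 0.0552). CD4+ T cells and MPP differed by -0.45 (95% interval -0.86 to -0.04, adjusted p = 0.0888), which was called without CD4+ T cell array 2 (-0.67, adjusted p = 0.0424).

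Of the 6 Cd151 probe sets, 4 gave the same directions as calls in MPP against HSC, PreMegE against MPP, CD4+ T cell against HSC and CD4+ T cell against PreMegE, and the remaining 2, 1420921_at and 1427525_at, were not called in any comparison. PreMegE against HSC was called on 1 of the 6. The brightest, 1456085_x_at, carries the suffix that the manufacturer gives to sets whose probes may match other transcripts, and 1451232_at, without it, was among the 4. Probe sets called in either direction made up 7.42% of all in MPP against HSC, 20.7% in PreMegE against HSC, 26.2% in PreMegE against MPP, 29.4% in CD4+ T cell against HSC, 28.5% in CD4+ T cell against MPP and 25.3% in CD4+ T cell against PreMegE.

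**Figure D2:**
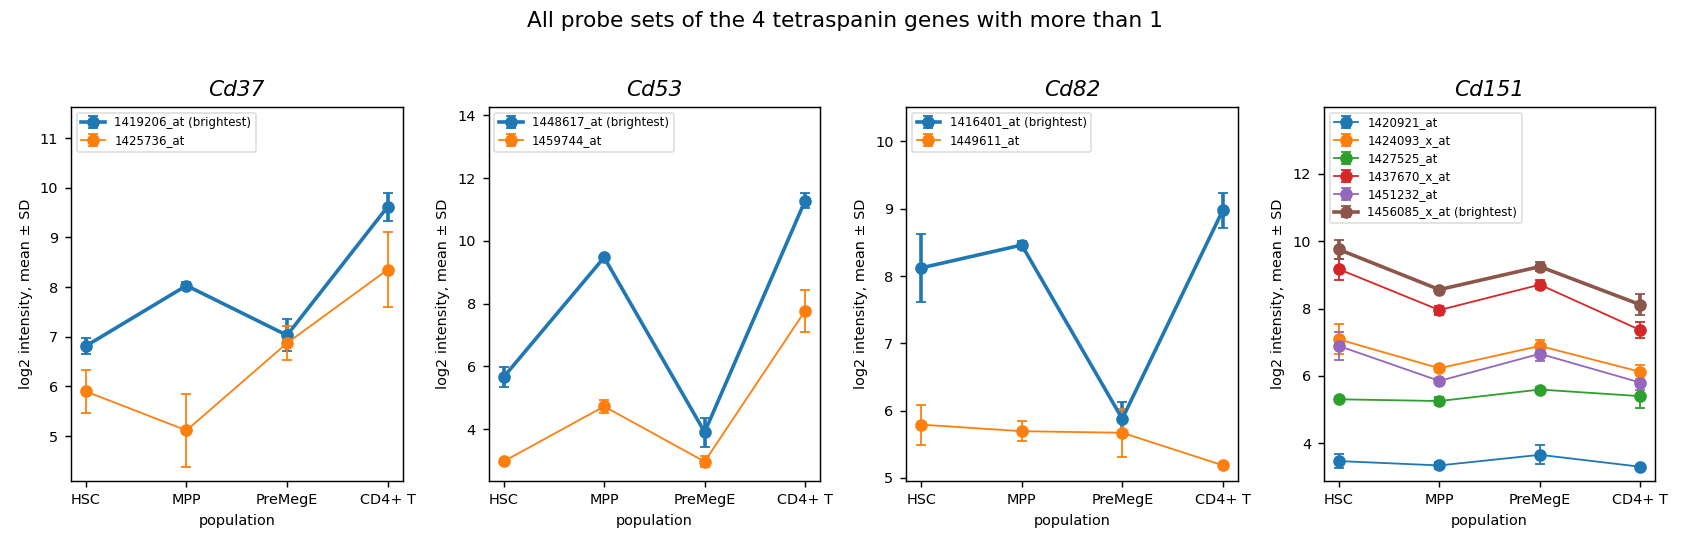
Mean log2 intensity with SD (vertical axes) in the 4 populations (horizontal axis) for every probe set of the 4 genes with more than 1, the brightest drawn with a heavier line. The lines of Cd53 run in the same order, the dimmer Cd82 probe set is level at 5.19 to 5.79, and the Cd37 probe sets move in opposite directions between HSC, MPP and PreMegE.

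Counted per comparison, 4 of the 6 genes were called in MPP against HSC: Cd37 and Cd53 were higher in MPP, and Cd9 and Cd151 lower. Over all genes 6.38% were higher and 4.93% lower in MPP. Genes called higher made up 56.4% of the called ones as deposited, 44.4% after quantile and 46.8% after cyclic loess normalisation, and the direction of these 4 genes did not turn under either. The members' median difference was 0.10 on the log2 scale, beside -0.03 over all genes.

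In PreMegE most of the listed genes were lower. Against HSC 5 of the 6 genes were lower and 0 higher, with a median difference of -1.29 beside -0.01 over all genes, of which 17.0% were called lower and 11.9% higher. Cd82 and Cd9 led in size, followed by Cd53, Cd81 and Cd151. Against MPP 5 were lower and Cd151 was higher, with a median of -0.96 beside 0.02, and 19.5% of all genes were lower and 13.5% higher. Both comparisons share the PreMegE arrays.

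CD4+ T cells split the genes by direction. Against HSC, Cd37, Cd53 and Cd82 were higher and Cd9, Cd81 and Cd151 lower, with a median of -0.01 beside -0.06 over all genes, where 17.0% were higher and 20.8% lower. Against MPP, Cd37 and Cd53 were higher and Cd81 lower, with a median of 0.44 beside -0.02, and 15.5% of all genes were higher and 20.0% lower. Against PreMegE, Cd9, Cd37, Cd53 and Cd82 were higher and Cd81 and Cd151 lower, with a median of 1.93 beside -0.06, and 16.3% of all genes were higher and 16.8% lower. These comparisons share the CD4+ T cell arrays.

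**Figure D3:**
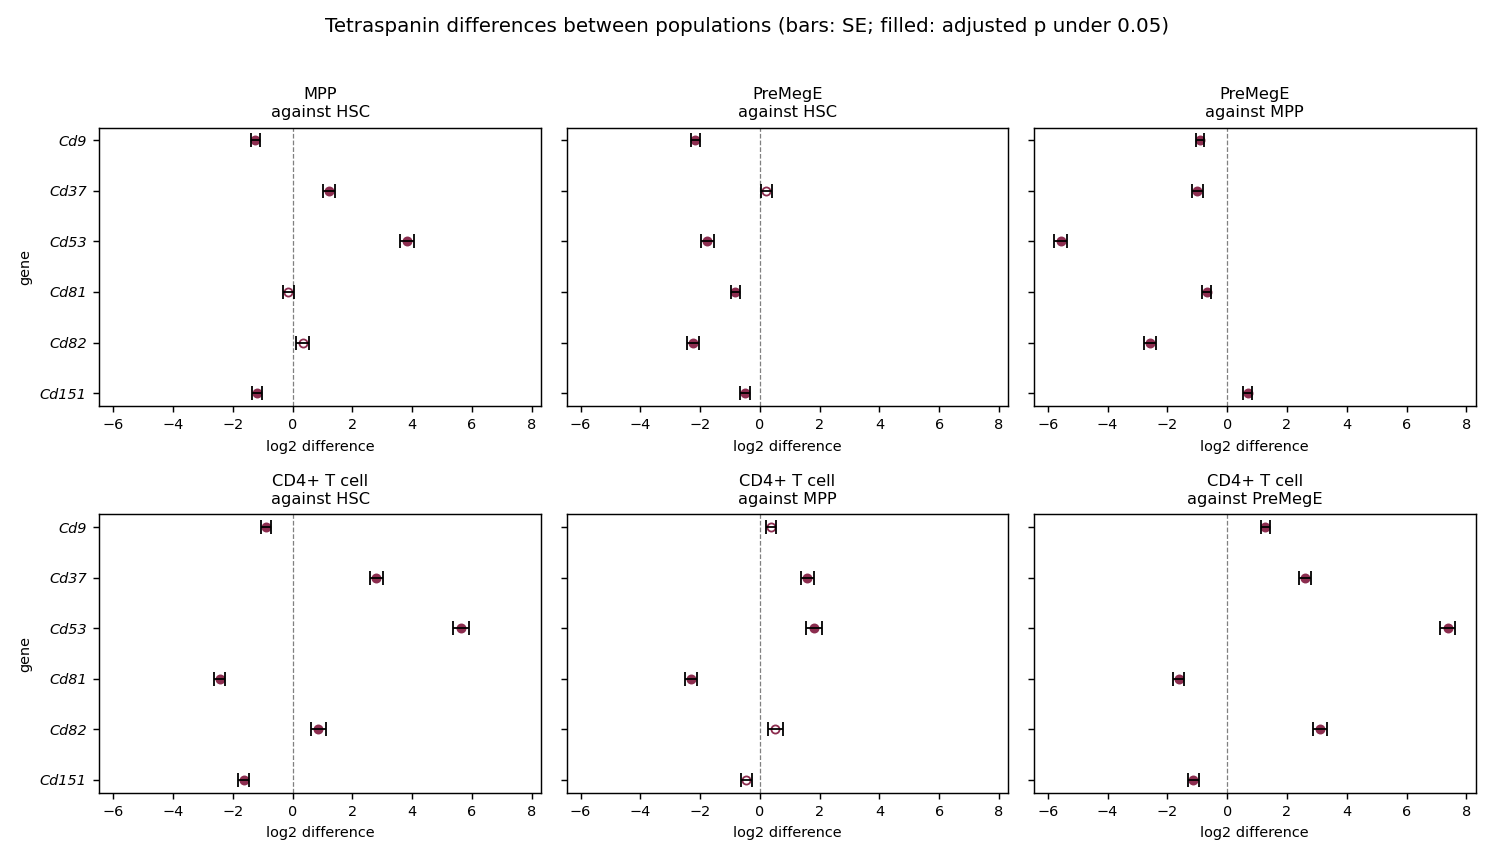
Log2 difference between populations (horizontal axes, first named minus second) for each tetraspanin gene (vertical axis) in 6 comparisons. Points are differences of means, bars are SE of the limma fit, and filled points have an adjusted p under 0.05. Cd53 has the longest excursions, from -5.57 in PreMegE against MPP to 7.38 in CD4+ T cell against PreMegE.

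Other tetraspanins of the family, 23 measured of 24 listed, serve as the wider family of the listed genes. In MPP against HSC 4 were higher (Tspan2, Tspan6, Tspan13 and Tspan31) and 2 lower (Tspan8 and Tspan33), where 6.38% of all genes were higher and 4.93% lower, with a median of -0.05 beside -0.03 over all genes. Tspan2 had the largest rise, from 5.09 to 5.43 in HSC to 6.83 to 7.0 in MPP (1.68 ± 0.21, adjusted p = 6.12e-05). Tspan8 had the largest fall (-1.56 ± 0.20, adjusted p = 7.65e-05), from a mean of 4.35 to 2.78, the latter under the 25th percentile of 3.28. With the next brightest probe set Tspan8 gave -0.12 (adjusted p = 0.847). With HSC array 1 as the only HSC array Tspan2 gave 1.84 and Tspan8 -1.87.

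In PreMegE 2 of the 23 were higher and 7 lower than in HSC, beside 11.9% and 17.0% of all genes, with a median of -0.24 beside -0.01. Against MPP 3 were higher and 11 lower, beside 13.5% and 19.5% of all genes, with a median of -0.19 beside 0.02. Tspan33, a regulator of the protease ADAM10 that red cell progenitors express, was among the higher ones: it was at 8.73 to 9.47 in PreMegE, 6.72 to 7.34 in HSC, 5.65 to 6.10 in MPP and 4.15 to 4.59 in CD4+ T cells. It was higher in PreMegE than in HSC by 2.03 ± 0.21 (adjusted p = 3.60e-06) and than in MPP by 3.32 ± 0.21 (adjusted p = 1.03e-08), and lower in CD4+ T cells than in PreMegE (-4.77 ± 0.24, adjusted p = 2.85e-10). Its arrays overlapped between no populations. Tspan3 had the largest fall from HSC to PreMegE (-2.35 ± 0.19, adjusted p = 2.86e-07) and Tspan2 from MPP to PreMegE (-3.30 ± 0.20, adjusted p = 4.22e-09). The summed level of 5 measured erythroid markers of 7 was 12.90 to 13.44 in PreMegE, 10.02 to 10.85 in HSC, 7.03 to 7.23 in MPP and 7.88 to 9.52 in CD4+ T cells. Different markers carried these sums. Car1 led in PreMegE, at 12.38 to 12.87, and was at 3.83 and 3.76 in CD4+ T cells. Alas2 led in CD4+ T cells, at 7.42 and 9.35, and was at 3.07 to 3.37 in PreMegE.

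In CD4+ T cells 1 other tetraspanin was higher and 9 were lower than in HSC, beside 17.0% and 20.8% of all genes, with a median of -0.26 beside -0.06. Against MPP 0 were higher (0 also at an unadjusted p under 0.05) and 9 lower by limma, beside 15.5% and 20.0% of all genes, with a median of -0.33 beside -0.02. Against PreMegE 4 were higher and 6 lower, beside 16.3% and 16.8% of all genes, with a median of 0.05 beside -0.06. This total of 10 became 6 without CD4+ T cell array 1, while calls over all 18193 genes went from 6028 to 5256. Tspan4, a protein of migrasomes, had the largest fall, from 9.02 to 9.35 in HSC and 9.08 to 9.34 in MPP to 4.05 on both CD4+ T cell arrays (-5.14 ± 0.16, adjusted p = 1.31e-12 against HSC, and -5.18 ± 0.16, adjusted p = 1.59e-12 against MPP). Tspan5, another partner of ADAM10, had the largest rise against PreMegE (1.68 ± 0.16, adjusted p = 5.53e-07), and its next brightest probe set gave 0.38 (adjusted p = 0.271). The single gene higher than in HSC was Rom1, known from photoreceptors (0.67 ± 0.20, adjusted p = 0.0134), at a mean of 4.37 against 3.71, and that call was lost without CD4+ T cell array 2 (0.46, adjusted p = 0.178) and with HSC array 1 as the only HSC array (0.46, adjusted p = 0.244).

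**Figure D4:**
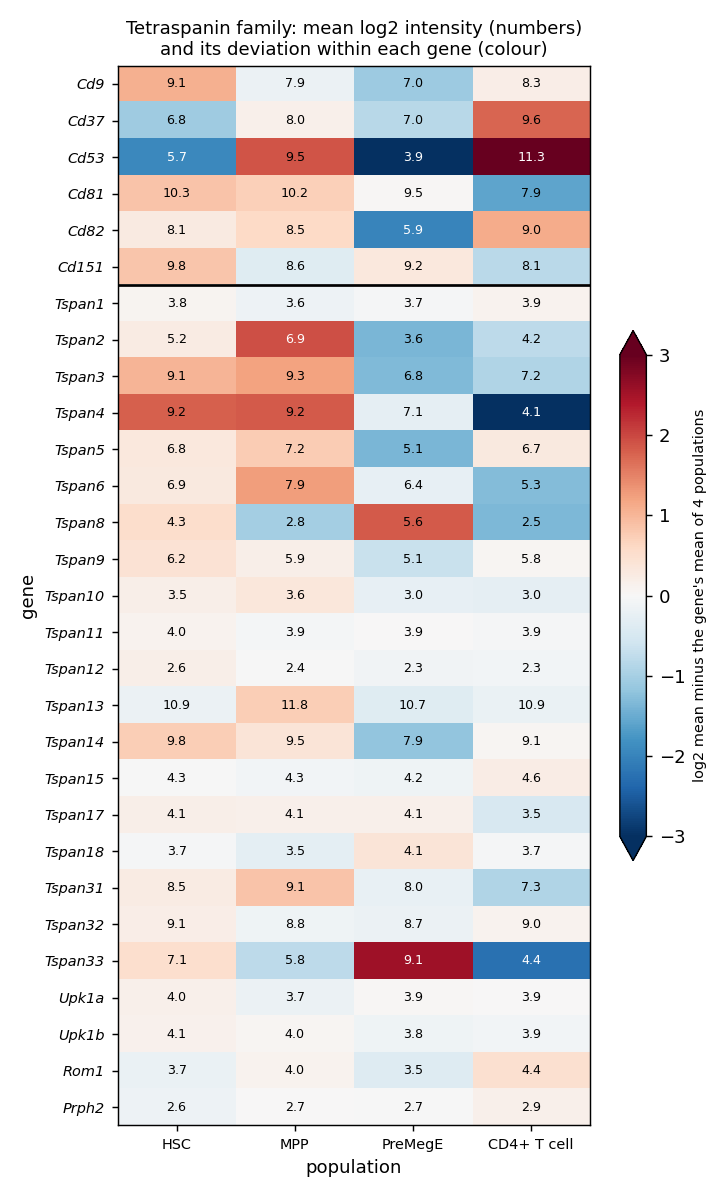
Mean log2 intensity (numbers in the cells) of 6 listed tetraspanins, above the line, and 23 other family genes in 4 populations. Colour is the deviation of a population from that gene's own mean over the 4, capped at the ends of the bar, so levels are not set against one another between genes. Cd53 and Tspan4 swing the farthest, and Tspan33 and Tspan8 are the genes that peak most clearly in PreMegE.

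Of 17 proteins known to bind or travel with a tetraspanin, 15 were measured. In MPP against HSC 1 was higher and 3 lower, beside 6.38% and 4.93% of all genes, with a median of -0.01 beside -0.03. This total of 4 became 2 without HSC array 1, MPP array 1 or MPP array 3 and with the next brightest probe sets. Calls over all 18193 genes fell too, from 2058 to 1653, 1401, 1280 and 1495 in that order. Il7r, the interleukin-7 receptor chain, was the one higher (1.83 ± 0.20, adjusted p = 2.14e-05), at 5.06 to 5.34 in MPP and 3.02 to 3.94 in HSC, about the 25th percentile there, and its next brightest probe set gave 0.07 (adjusted p = 0.910). Itga6, the integrin chain that pairs with CD151 in laminin receptors, had the largest fall (-0.94 ± 0.18, adjusted p = 0.00247), from 8.84 to 9.05 in HSC to 7.90 to 8.05 in MPP. With HSC array 1 as the only HSC array Itga6 gave -0.91 (adjusted p = 0.0784).

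In PreMegE 2 partners were higher and 3 lower than in HSC, beside 11.9% and 17.0% of all genes, with a median of -0.21 beside -0.01. Against MPP 2 were higher and 4 lower, beside 13.5% and 19.5%, with a median of -0.05 beside 0.02. Itga4, an integrin chain that binds fibronectin and VCAM-1, was highest in PreMegE, by 0.94 ± 0.20 over HSC (adjusted p = 0.00206) and 1.73 ± 0.20 over MPP (adjusted p = 6.30e-06). Clec7a, the receptor dectin-1 that CD37 binds, had the largest fall from HSC (-1.87 ± 0.24, adjusted p = 2.03e-05) and Il7r from MPP (-1.95 ± 0.19, adjusted p = 9.26e-07, and -0.29 on its next brightest probe set, adjusted p = 0.257). The 5 called against HSC became 8 with the next brightest probe sets, while calls over all 18193 genes went from 5255 to 3962.

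In CD4+ T cells 2 partners were higher and 3 lower than in HSC, beside 17.0% and 20.8% of all genes, with a median of -0.04 beside -0.06. Against MPP 4 were higher and 3 lower, beside 15.5% and 20.0%, with a median of 0.05 beside -0.02, and against PreMegE 4 and 3, beside 16.3% and 16.8%, with a median of 0.20 beside -0.06. The 5 called against HSC became 10 with the mean of all probe sets or with the next brightest. Calls over all 18193 genes went from 6879 to 6575 and 5601 in these settings. Il7r had the largest rise in each, to 11.63 and 11.66 (8.29 ± 0.23 over HSC, adjusted p = 4.27e-13, 6.47 ± 0.23 over MPP and 8.42 ± 0.21 over PreMegE). Its means of 3.35 in HSC and 3.22 in PreMegE lay at or under the 25th percentile of gene means, so the fitted sizes against these populations are not precise. Kit, the stem cell factor receptor on which the marrow cells were sorted, had the largest fall (-7.11 ± 0.30 against HSC, adjusted p = 4.27e-11), and as a sort marker it describes the gates.

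The genes whose 4 population means ran most like those of each member, each gene centred on its own mean, were found over all genes by the root mean square difference on the log2 scale. For Cd53 these were Ighm at 0.265, Emb at 0.422 and Klf2 at 0.632. Ighm, also the leading B cell marker above, had means of 12.39 in CD4+ T cells, 10.35 in MPP, 6.26 in HSC and 5.22 in PreMegE, but the last means were carried by HSC array 2 and PreMegE array 1. Without those arrays, an alternative chosen after seeing the data, Ighm was at 4.88 and 3.85, and the nearest genes were Emb at 0.435, Ighm at 0.702 and Socs3 at 0.725. For Cd37 they were Pycard at 0.0538, Lgmn at 0.157 and Map3k3 at 0.168, and for Cd82 Arid5b at 0.0414, Klk8 at 0.0497 and Afp at 0.0949. For Cd9 they were Mllt3 at 0.135, Tulp3 at 0.187 and Rnf145 at 0.216. Cd81 was nearest to Tnfsf13os at 0.0679, Umps at 0.0703 and Phka2 at 0.0727, and Cd151 to Sphk1 at 0.0228, Adcy6 at 0.0982 and Rsbn1 at 0.106. With 4 population means per gene and 18193 genes to choose from, close matches are easily found, and these names describe the means only.

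The span between the highest and the lowest population mean, last, was 1.64 for Cd151, 2.16 for Cd9, 2.44 for Cd81, 2.80 for Cd37, 3.10 for Cd82 and 7.38 for Cd53 on the log2 scale. These lie at percentiles 81.6, 88.4, 91.1, 93.2, 94.5 and 99.8 of all genes. HSC held the highest mean of Cd9, Cd81 and Cd151 and CD4+ T cells that of Cd37, Cd53 and Cd82, while PreMegE held the lowest of Cd9, Cd53 and Cd82, CD4+ T cells of Cd81 and Cd151, and HSC of Cd37. Not called apart were HSC and PreMegE for Cd37, HSC and MPP for Cd81, and CD4+ T cells and MPP for Cd82 and Cd151. The lowest mean was in MPP on 1425736_at of Cd37 and in CD4+ T cells on 1449611_at of Cd82.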

How the data were processed

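Expression was measured on Affymetrix arrays in 12 samples of 4 sorted populations, grouped by their titles. The deposited values are linear intensities, 1 per probe set, which the authors made with RMA, as the submitters' processing notes name it. The version, and which arrays were normalised together, are not given in the sources used here. Taking log2 of the deposited intensities was the only transformation made here, with no further scaling and no filter on low values. Of 45101 probe sets, 64 controls were left out, and 34945 had a single symbol in the platform annotation, giving 18193 genes. Levels of Cd63, Tspan7 and some other listed genes were not analysed here.

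A mean per population was fitted to all 12 arrays with limma 3.58.1 (lmFit and eBayes, two-sided) in R 4.3.3 with the reader package data.table (version 1.17.8), and p-values were adjusted by Benjamini-Hochberg over all genes, or over all 45037 probe sets where a probe set is named. Differences were called at an adjusted p under 0.05, and a count of genes higher or lower is a count of calls. The scripts were tested on simulated data. All comparisons share arrays and 1 estimate of spread, and the number of arrays, 2 to 4 a population, limits the precision. Depth has no meaning for arrays.

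The members, lists and tests were chosen with earlier results of these data known, and the promoter motifs after the sequences were read. Named genes were all members, the largest called rise and fall of each list per comparison, the 3 nearest patterns per member, and the sort markers. Summed marker levels are log2 of summed intensities. Promoters are RefSeq's, of assembly GRCm38.p6. Alternatives changed the scaling, the filter on dim genes, the probe set, the replicate block, the arrays fitted and the prior of the spread, and left out arrays in turn.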

Additional observations from a re-analysis of the deposited data

How the results depend on the processing

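Over 22 alternatives, 12 of which left out 1 array, 764 of 792 values of the 6 genes kept their direction and their side of the threshold, 17 lost the call, 4 gained one and 7 turned in sign. Many of these values were not free to turn. Cd9 and Cd81 have 1 probe set each, so a change of probe set leaves them as they were. Leaving out an array outside a comparison changes only the estimate of spread, not the difference of means. As long as the brightest probe set was used, 0 turned and 6 of 36 results changed side, each given with its values in the account of Cd9, Cd37, Cd82 or Cd151. With the replicate block PreMegE against HSC of Cd151 was -0.46 (adjusted p = 0.0600), and no other call on these genes changed. Arrays that share a number had deviations correlated at -0.12 to 0.41 over 15 pairs, so the numbers were not taken to pair samples.

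The choice of probe set mattered most. With the next brightest one, Cd37 turned to -0.79 in MPP against HSC (adjusted p = 0.25) and to 1.76 in PreMegE against MPP (adjusted p = 0.00112), the latter also 0.38 with the mean of all probe sets (adjusted p = 0.235). Cd82 turned to -0.10 in MPP against HSC (adjusted p = 0.884) and, in CD4+ T cells, to -0.60, -0.51 and -0.48 against HSC, MPP and PreMegE (adjusted p = 0.0635, 0.126 and 0.132). The genes called in PreMegE against HSC then numbered 2 in place of 5. Those 2 were Cd9 and Cd81, which have 1 probe set each, so their differences could not change here. Cd53 was at -0.00, Cd82 at -0.12 and Cd151 at -0.46 (adjusted p = 0.993, 0.748 and 0.0580). Cd82 in PreMegE against MPP was -0.02 (adjusted p = 0.953), and Cd151 in CD4+ T cell against MPP was called at -0.59 (adjusted p = 0.0305). With the mean of all probe sets Cd151 in PreMegE against HSC was -0.15 (adjusted p = 0.470) and Cd82 in CD4+ T cell against HSC 0.13 (adjusted p = 0.689). The cause was not tested. Signal near the 25th percentile limits Cd53 in PreMegE.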
